A study of Homo sapiens with 2 samples.

Results

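Isolated Alu clusters are places in Alu repeats where ADAR1 was found on RNA and no other cluster lay nearby in the genome. A cluster was counted as isolated when it carried the authors' Alu class and no other cluster of either class, on either strand of its chromosome, had an edge within 200000 bases. This rule found 565 isolated Alu clusters among 20200 Alu clusters and 23782 clusters in all. They made up 2.80% of the Alu class, with a Wilson 95% interval of 2.58 to 3.03%. Of the 3582 non-Alu clusters, 80 met the same distance, or 2.23% (interval 1.80 to 2.77%). Over both classes the share was 2.71%, and the members were chosen by this measured distance and by the class, so nothing is read from these shares.

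The clusters came from CLIP-seq, in which RNA is crosslinked to a protein with ultraviolet light, pulled down with an antibody and sequenced. The cells were U87MG, an established human glioblastoma (astrocytoma) line, with no treatment named in the labels beyond the crosslinking. The series has 2 libraries, AB1 and AB2, named for the ADAR1 antibody, and 1 cluster list for both. The design text speaks of different antibodies, but the labels give both libraries the same catalogue number, so whether the antibodies differed is not settled here. That list gives each cluster a position, a strand and a class, with no read number and no mark of the library, so each value below is without replicates, AB1 and AB2 were not compared, and the depth is unknown.

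ADAR1 changes adenosine to inosine in double-stranded RNA. Alu elements are short retrotransposed repeats of primates, frequent in introns and untranslated regions. Neighbouring Alu copies in opposite orientation can fold back on each other, and the paired RNA is the best known substrate of ADAR1 in human cells. Because an intron often holds many Alu copies, several clusters can fall in a single transcript. Isolated clusters are those with no other listed cluster within 200000 bases. Whether any of them shares a transcript with a more distant cluster was not analysed here. Neither a genome nor a gene annotation of hg19, the build of the list, was at hand. The clusters are therefore described by position, and their genes, sequence, orientation within the repeat and inverted partner copies were not analysed here.

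Isolated Alu clusters lay far from the bulk of the class. Their median distance to the nearest cluster was 299078 bases, with quartiles of 232498 and 442388 bases. The other 19635 Alu clusters had a median of 16113 bases. Among the isolated clusters, 280 were more than 300000 bases from the nearest cluster, 114 more than 500000 bases and 26 more than 1000000 bases. These values follow from the rule and describe its reach. The histogram of distances shows no break at the chosen distance: the isolated clusters are the far tail of a single hump.

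**Figure D1:**
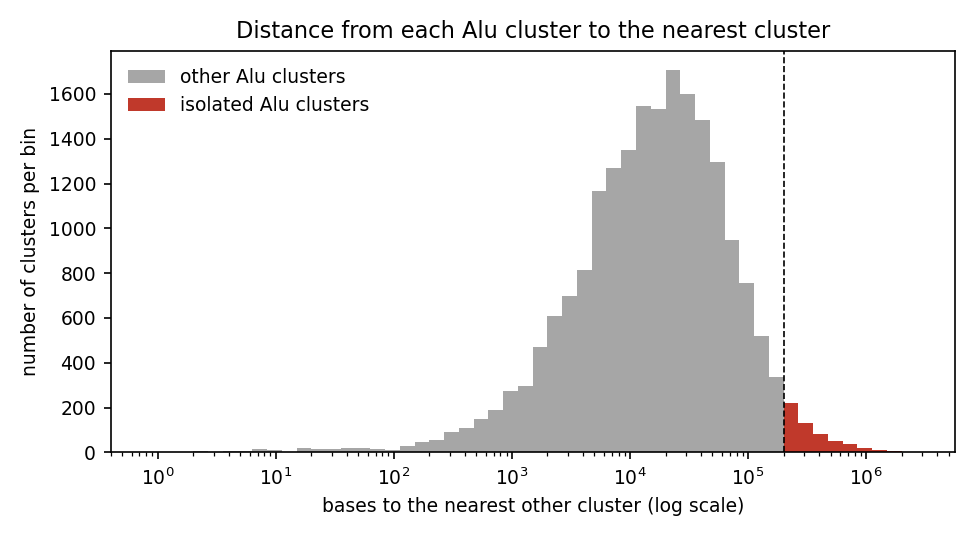
Number of Alu clusters per bin (vertical axis) by distance in bases to the nearest other cluster (horizontal axis, log scale), with the 565 isolated clusters in red, the other Alu clusters in grey and the dashed line at 200000 bases. The 118 other Alu clusters that overlap another cluster have a distance of 0 and are not drawn; the isolated clusters continue the right flank of the distribution without a gap.

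The clusters on either side of the line were much alike in distance. Just inside it, 2 plus-strand clusters of chromosome 8, of 202 and 225 bases, were each other's nearest neighbour at 200214 bases. The next was a plus-strand cluster of 175 bases on chromosome 6, from 170152223 to 170152397, at 200415 bases. Just outside, a plus-strand cluster of 349 bases on chromosome 4, from 78529287 to 78529635, was 199829 bases from its neighbour. A minus-strand cluster on chromosome 18, from 24748147 to 24748338, missed the line at 199005 bases, and 1 on chromosome 12, from 103865796 to 103866158, at 198806 bases.

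The farthest of the isolated clusters stood in wide empty stretches. The minus-strand cluster on chromosome 13 from 88220508 to 88220892 had 2152839 bases without a cluster before it and 2512192 after it. At 385 bases it was also among the longest. A minus-strand cluster of 224 bases on chromosome 16, from 33490649 to 33490872, had 1971092 bases before it and 13029563 after it. What these stretches hold, whether genes, unassembled sequence or neither, was not analysed here. The minus-strand cluster of chromosome 6 between 62405815 and 62406022 had 4123184 bases before it and 1881446 after it. On chromosome 3, 2 minus-strand clusters, from 162930488 to 162930838 and from 164732139 to 164732342, were nearest to each other at 1801300 bases. None of these 5 clusters had another within 1000000 bases.

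On their farther side, isolated clusters had wider empty stretches still. For the 559 isolated clusters with a cluster on both sides, the median distance on the farther side was 666643 bases, and for 186 of them, 33.3%, it exceeded 1000000 bases. The farther distance is the larger of a pair, so it exceeds the nearest one by definition. The other 6 were the first or last cluster of their chromosome. Within 1000000 bases an isolated cluster had a median of 9 other clusters (range 0 to 45), against 24 (range 1 to 93) for the other Alu clusters. Part of this contrast is fixed by the rule, which empties the inner part of the window around isolated clusters. The rule also gives every other Alu cluster a neighbour within the window. How much of the contrast remains beyond the distance of the rule was not analysed here.

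The nearest clusters of isolated ones less often had a cluster close by than those of the other Alu clusters. The rule favours this by construction. For 85 of the 565, 15.04%, the nearest cluster had a further cluster within 10000 bases. The same count gave 49.3% for the other Alu clusters, but there the cluster found can be the starting cluster itself. These shares therefore do not measure the same thing. For 420 of the 565, 74.3%, the nearest cluster had a further one within 200000 bases. Every other Alu cluster's neighbour has a cluster within that distance by the rule, since the starting cluster counts. For 129 isolated clusters, 22.8%, the nearest cluster was itself an isolated Alu cluster, and for 16 it was an isolated non-Alu cluster. The nearest cluster was Alu for 501 of 565, 88.7% (Wilson interval 85.8 to 91.0%), close to the 90.4% (90.0 to 90.8%) of the other Alu clusters. The difference of -1.76 percentage points had a Newcombe 95% interval of -4.67 to 0.63, which includes 0.

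In places several isolated clusters followed each other with nothing listed between them. Most stood alone in this respect: 335 had a cluster outside the set on each side or a chromosome end. Another 168 came as 84 consecutive pairs and 45 as 15 triplets. Of the 4 longer runs, 3 were on chromosome 11. The longest run, of 5 clusters, spanned 7750262 bases of chromosome 11 from 49202635 to 56952896, with 954 bases covered by clusters and a largest inner gap of 6106300 bases. Whether that gap holds unassembled sequence, where no cluster could be listed, was not analysed here. Another run on chromosome 11 had 4 clusters from 57834524 to 59835936, and the third had 4 from 89091376 to 89911865. The run on chromosome 12 had 4 clusters from 77195148 to 78485517. Each of the 4 runs held clusters of both strands, with 3 on the plus strand in every case. Their lengths, from 111 to 249 bases, stayed within the usual range of the class.

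All 24 chromosomes with clusters held isolated ones, in very different shares. Chromosome 2 had the most, 53, followed by chromosomes 8 with 43, 3 with 42, 4 with 39, and 1 and 6 with 38 each. As a share of a chromosome's Alu clusters, isolation was lowest on chromosome 17, at 5 of 1169 or 0.43% (Wilson interval 0.18 to 0.997%). Chromosome 22 had 0.66% (0.22 to 1.91%) and chromosome 19 had 0.78% (0.38 to 1.59%). These 3 had the most clusters of any class per megabase between their first and last cluster, 16.4 to 18.1. A dense chromosome leaves fewer clusters isolated by construction, since both values come from the same distances.

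At the other end, chromosome 8 had 43 isolated clusters of 755, 5.70% (4.26 to 7.58%), and chromosome 18 had 21 of 439, 4.78% (3.15 to 7.20%). Chromosome Y reached 10.3% on only 7 of 68 clusters (5.08 to 19.8%), and the list holds 2.72 clusters per megabase there. Whether the cells carry chromosome Y, or reads from other chromosomes were placed on it, was not analysed here. Chromosomes of like density could differ in share, within overlapping intervals. Chromosome 11, with 7.88 clusters per megabase, had 4.08% isolated (2.96 to 5.60%), while chromosome 3, with 7.85, had 3.10% (2.30 to 4.16%). Chromosome 4, with 5.42 clusters per megabase, had 4.34% isolated (3.19 to 5.88%), and chromosome X, with 5.87, had 3.08% (2.09 to 4.50%).

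Isolated clusters were also set against each chromosome's protein-coding gene number in GENCODE release 29. Chromosome 17 had 0.42 isolated clusters per 100 coding genes, chromosome 19 had 0.48 and chromosome 22 had 0.68. Chromosomes 18, 13 and 8 had 7.81, 6.54 and 6.30, and chromosome Y, with 63 coding genes, had 11.1. Chromosome 1, with the most coding genes, had 1.86. Gene length was not taken into account, and the release is on another build, so only its gene numbers were used.

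**Figure D2:**
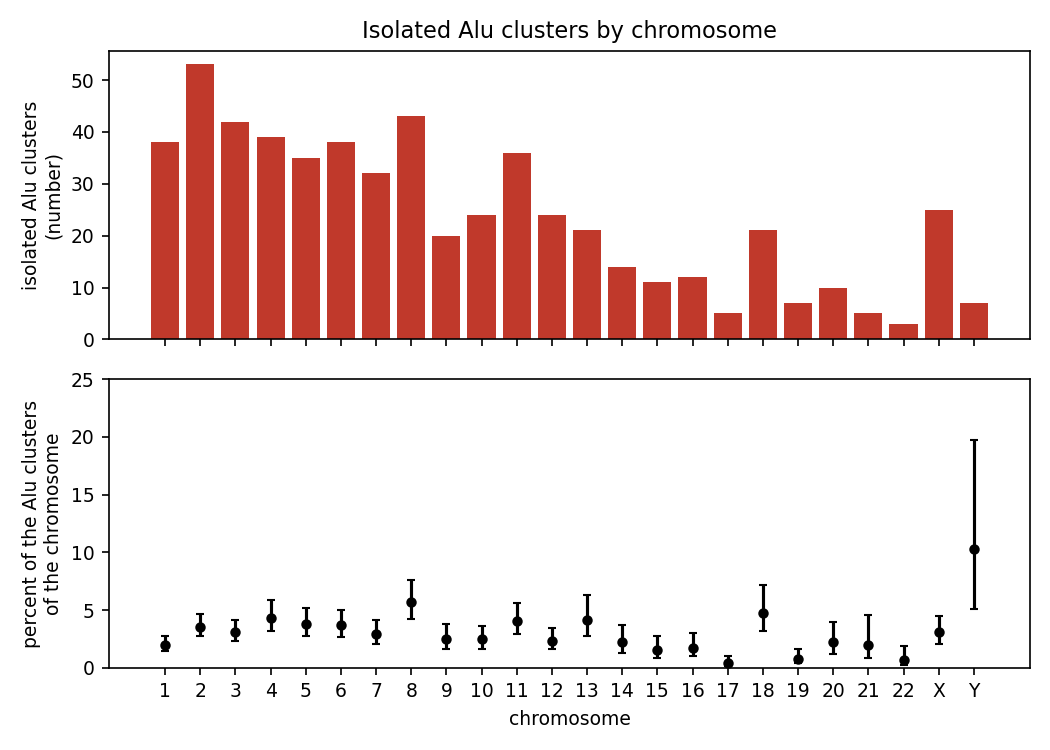
Upper panel, number of isolated Alu clusters on each chromosome; lower panel, their percent of that chromosome's Alu clusters, with Wilson 95% intervals as bars. Chromosomes 17, 19 and 22 sit lowest, below 1%, chromosome 8 at 5.70% is the highest of the numbered chromosomes, and chromosome Y has a wide interval on 7 clusters.

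The 7 isolated chromosome Y clusters lay between 2934095 and 26984046. They ranged from 48 to 341 bases in length. The most isolated of them, on the plus strand from 26983926 to 26984046, was the last cluster of its chromosome, 1702865 bases from the nearest.

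Isolated clusters divided nearly evenly between the strands. There were 292 on the plus strand, 51.7% (Wilson interval 47.6 to 55.8%), and 273 on the minus strand. The other Alu clusters had 50.1% on the plus strand, 1.62 percentage points less, and the interval of this difference, -2.55 to 5.78, includes 0. Chromosome 3 was the only 1 of the 24 whose own interval left out an even split, with 29 of 42 on the plus strand (69.0%, interval 54.0 to 80.9%). At 95% confidence, 24 intervals can include such a value by counting error.

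The strand of the nearest cluster was another matter. Only 312 of 565 isolated clusters, 55.2% (51.1 to 59.3%), shared a strand with their nearest cluster. Among the other Alu clusters 87.4% (86.9 to 87.8%) did. The difference was -32.1 percentage points (Newcombe interval -36.3 to -28.1). The share fell further within the isolated clusters. At 200000 to 300000 bases it was 60.7% (54.9 to 66.2%, 285 clusters), at 300000 to 500000 bases 51.2% (43.7 to 58.7%, 166 clusters), and beyond 500000 bases 47.4% (38.4 to 56.5%, 114 clusters). Only the first of these intervals lies above 50%. Clusters that were each other's nearest share an outcome but are counted separately, so the intervals may be too narrow. Reads of a CLIP library carry the strand of their RNA, so clusters within 1 transcript have the same strand. Whether shared transcripts have a part in these shares was not tested.

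**Figure D3:**
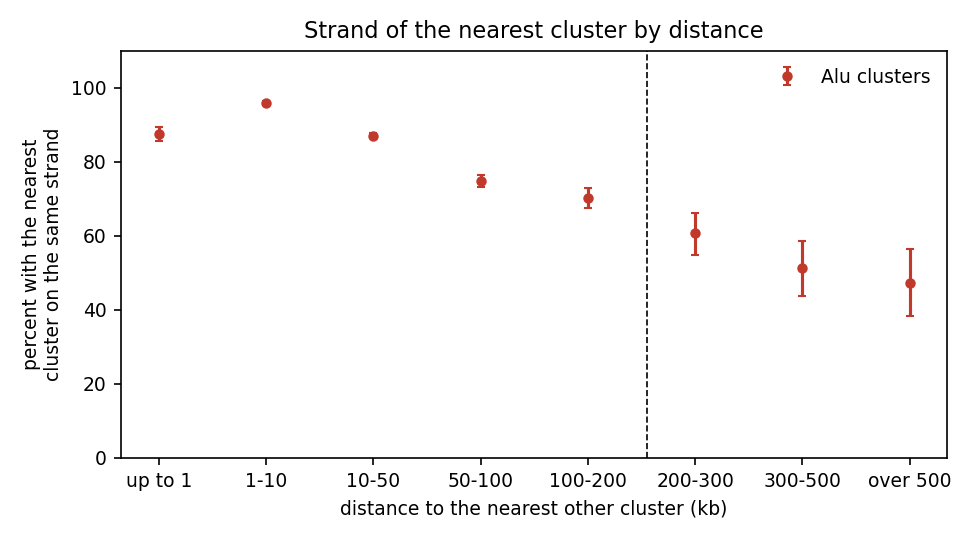
Percent of Alu clusters whose nearest cluster lies on the same strand (vertical axis) by distance to that cluster in kb (horizontal axis), with Wilson 95% intervals; isolated clusters are right of the dashed line. The share is 96.0% at 1 to 10 kb, 70.3% at 100 to 200 kb and 47.4% beyond 500 kb. Up to 1 kb it is 87.6%. That bin includes clusters that overlap another, and their part in the dip was not tested.

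Both flanks gave the same picture. Of 559 isolated clusters flanked on both sides, 162 (28.98%, interval 25.4 to 32.9%) had both flanking clusters on their own strand, 286 (51.2%) had 1 and 111 (19.9%) had none. The other Alu clusters had both on their strand in 62.4% of cases and none in 5.39%. In 42 pairs, isolated clusters were each other's nearest neighbour, and 28 of these pairs (66.7%, interval 51.6 to 79.0%) shared a strand. This share was higher than the 55.2% of all isolated clusters, a value that its interval includes. The 80 isolated non-Alu clusters had their nearest cluster on the same strand in 48.8% of cases. They differed from the isolated Alu clusters by 6.47 percentage points (interval -5.05 to 17.9, which includes 0).

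Length, which the rule did not use, differed mainly at the long end. Isolated Alu clusters had a median length of 199 bases, with a 95% interval from the ranked values of 194 to 204. The other Alu clusters had a median of 192 (192 to 193), and the isolated non-Alu clusters 191.5 (174 to 206). The mean was 201 ± 67.5 bases (SD, 565 clusters) against 189 ± 57.5 (SD, 19635 clusters). The middle of the distributions was close: the lower quartile was 153 against 152 bases and the upper quartile 229 against 221. The 90th percentile was 288 against 242 bases. Among clusters of at most 300 bases, the medians were 193 (187 to 199) and 191 (190 to 191), and these intervals overlap.

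Clusters longer than 300 bases were more frequent among the isolated ones. There were 52 of 565, 9.20% (Wilson interval 7.09 to 11.9%), against 760 of 19635, 3.87% (3.61 to 4.15%). The difference of 5.33 percentage points had a Newcombe interval of 3.20 to 8.01. It held at other lengths: 14.3% against 7.82% were longer than 250 bases, and 5.49% against 2.33% longer than 350 bases. Clusters under 100 bases made up 4.07% against 5.45%, a difference of -1.38 points whose interval, -2.76 to 0.61, includes 0. Lengths of 160 to 240 bases, the bulk of both sets, were less frequent among the isolated clusters, at 53.6% against 61.1% (difference -7.44 points, interval -11.6 to -3.31). The length of 300 bases was chosen after the lengths were seen. These intervals treat clusters as independent and cover counting error only, so they show nothing of the spread between cultures or libraries.

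**Figure D4:**
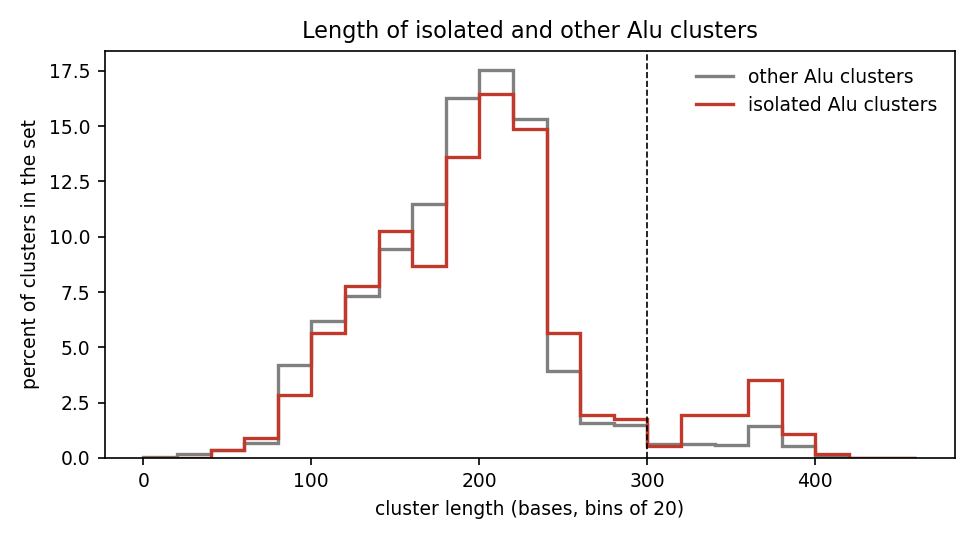
Percent of clusters in each set (vertical axis) by cluster length in bins of 20 bases (horizontal axis), for isolated Alu clusters in red and other Alu clusters in grey, with a dashed line at 300 bases. Both sets have a main hump below 260 bases and a smaller hump above 320 bases; 8.50% of the isolated and 3.19% of the other Alu clusters are over 320 and up to 400 bases. The few longest of the other Alu clusters lie beyond the axis.

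Most of the 52 long isolated clusters were well over 300 bases. Only 3 were over 300 and up to 320 bases, while 48 were over 320 and up to 400, a wider range. Among the other Alu clusters the counts in these ranges were 118 and 626, a less marked contrast. The median of the 52 was 361.5 bases. Their most frequent length was 369 bases, found 6 times, and 13 of the 52 (25%, Wilson interval 15.2 to 38.2%) fell between 366 and 370 bases, the 5-base range that held the most of them. In the other Alu clusters longer than 300 bases, 133 of 760 (17.5%, 14.96 to 20.4%) fell in the same narrow range. Of the 158 long clusters among the other non-Alu clusters, 4 did (2.53%, 0.99 to 6.33%). The range was picked on the isolated clusters, so the other Alu clusters are the set in which it can be read. How the authors joined reads into clusters is not given in the sources used here, and its part in these lengths was not tested.

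The share of long clusters rose with distance before the line was reached. Alu clusters with a neighbour at 1000 to 10000 bases were long in 3.18% of cases (2.77 to 3.65%), at 50000 to 100000 bases in 4.45% (3.71 to 5.33%) and at 100000 to 200000 bases in 6.47% (5.17 to 8.05%). Within the isolated clusters no further rise was seen. The share was 10.2% (7.18 to 14.2%) at 200000 to 300000 bases, 7.83% (4.63 to 12.9%) at 300000 to 500000 bases and 8.77% (4.83 to 15.4%) beyond. The median distance of the 52 long clusters, 278253 bases, was below the 300198 bases of the other isolated clusters.

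Non-Alu clusters were long most often when close together. The share was highest when a neighbour lay within 1000 bases, at 10.3% (8.17 to 13.0%), and it was 2.50% (0.69 to 8.66%) for the isolated ones, on 2 of 80 clusters. The isolated Alu clusters exceeded the isolated non-Alu clusters by 6.70 percentage points, and the lower end of the interval, 0.19 to 9.93, is close to 0. At the other lengths the interval of this difference included 0: it was 3.09 points (-6.07 to 9.17) over 250 bases and 4.24 points (-1.49 to 6.66) over 350 bases.

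**Figure D5:**
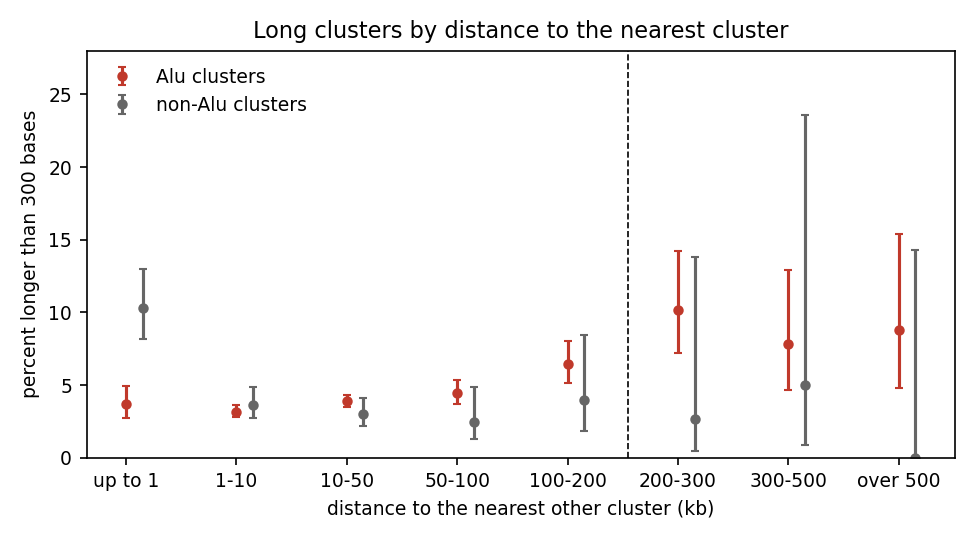
Percent of clusters longer than 300 bases (vertical axis) by distance to the nearest cluster in kb (horizontal axis), for Alu clusters in red and non-Alu clusters in grey, with Wilson 95% intervals and a dashed line before the isolated clusters. The Alu share climbs from 3.18% at 1 to 10 kb to 10.2% at 200 to 300 kb, and the non-Alu intervals beyond 200 kb are wide because only 80 clusters lie there.

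The long isolated clusters were spread over 21 chromosomes. Chromosome 3 had the most, 7 of its 42 isolated clusters. Within chromosomes the isolated clusters had the larger share of long ones on 18 of 24, and 3 of the 6 others (chromosomes 14, 17 and 22) had no long isolated cluster, on 14, 5 and 3 isolated clusters. Without any single chromosome the share of long isolated clusters stayed between 8.60 and 9.77%. Long isolated clusters were on the plus strand in 24 of 52 cases (46.2%, 33.3 to 59.5%). They shared a strand with the nearest cluster in 29 of 52 (55.8%, 42.3 to 68.4%), against 55.2% of the shorter isolated clusters. The 52 were 6.40% of the 812 Alu clusters longer than 300 bases.

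Single clusters show the range. The longest, of 409 bases, lay on the plus strand of chromosome 4 from 72992892 to 72993300, 273709 bases from a minus-strand Alu cluster. A minus-strand cluster of 389 bases on chromosome 2, between 200146541 and 200146929, had 1229688 bases before it and 493751 after it. The next longest measured 385 bases, at the minus-strand site of chromosome 3 between 160235865 and 160236249 and at the chromosome 13 site named above. On the plus strand of chromosome 10, a cluster of 383 bases lay from 63425338 to 63425720. Long clusters thus occurred both near the line and in the widest empty stretches.

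The shortest isolated cluster, of 44 bases, lay on the plus strand of chromosome 2 from 159663212 to 159663255, with 20 other clusters within 1000000 bases. A plus-strand cluster of 48 bases lay on chromosome Y from 21737854 to 21737901, 512828 bases from the next. The other 3 of the shortest 5 measured 71 bases on chromosome 8, 72 bases on chromosome 5 from 35653885 to 35653956, and 76 bases on chromosome 4 from 173886524 to 173886599. Short reads can match many Alu copies, and a processing step has to handle such reads. That step is not given in the sources used here, and its part in the lengths was not tested.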

How the data were processed

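Per the submitters' processing notes, reads were handled with cutadapt 1.1 and Novoalign 2.08.22 on build hg19. For the 2 libraries the authors deposited a single cluster list with position, class, name and strand. How clusters were called, libraries pooled and the Alu class assigned is not given in the sources used here. Starts were read as counted from 0, as in BED files, and are printed counting from 1; the list does not state this.

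Distances are bases between nearest edges, 0 for overlaps. Shares have Wilson 95% intervals, differences of shares Newcombe intervals and medians binomial intervals from ranked values. No test was made, since the list holds no values per library. The reference at hand is on GRCh38, so its coordinates were not used and no sequence is printed; planned results on genes, inverted copies and orientation were not run. The distance code was tested on simulated data. The analysis used Python 3.11.15, numpy 2.4.6, pandas 2.3.3, scipy 1.17.1 and matplotlib 3.10.9. The members and measures were chosen with earlier results of these data known. Clusters named are the 5 farthest, 5 longest and 5 shortest members and the 3 nearest the line on each side; the chromosome runs and the chromosome Y cluster farthest from its neighbour were chosen after their values were seen.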

Additional observations from a re-analysis of the deposited data

How the results depend on the processing

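Leaving out each chromosome in turn gave 48 values for long clusters and for the strand of the nearest cluster, each within the interval of the reported value; these subsets are nearly the same clusters. Of the 21 other alternative values, 13 stayed within the interval of the reported value or, for the number of clusters, within 1.5 times of it, and 8 did not. The number of isolated Alu clusters, 565, was 1694 at a distance of 100000 bases, 114 at 500000 bases and 1330 when only same-strand clusters counted as neighbours. At 500000 bases the median length was 205 bases and the plus-strand share 46.5%. The share with the nearest cluster on the same strand was 65.3% at 100000 bases and 47.4% at 500000 bases, as its decline with distance entails. The share longer than 300 bases was 6.62% when only same-strand clusters counted as neighbours, 7.38% at 100000 bases and 8.77% at 500000 bases; the cause was not tested. Counting only Alu neighbours raised the number to 718. Midpoint distances (566), leaving out clusters under 40 bases (570) and merging clusters within 50 bases (568) changed the number little. Without chromosome Y the highest share of isolated clusters on a chromosome was 5.70%, on chromosome 8, against 10.3% with it. This value is among the 13 only because the interval of chromosome Y, 5.08 to 19.8%, is wide. The alternatives for long clusters and for the strand of the nearest cluster were chosen after the data were seen. Alternatives on genes, inverted copies and orientation, listed beforehand, were not run without an hg19 genome and annotation. No paired analysis was possible because the list does not separate the 2 libraries, and no library could be left out for the same reason. With no read counts, neither weak clusters nor empty stretches can be judged.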
